A study of Mus musculus with 22 samples.

Results

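The 10 genes Kmt2a, Kmt2b, Kmt2c, Kmt2d, Kmt2e, Setd1a, Setd1b, Men1, Dot1l and Ash1l, a named list of trithorax-type methyltransferases and their partners, were examined among 21829 protein-coding genes. For each gene, the H3K27ac peaks that overlapped the gene body or lay within 10 kb of it were taken from the peak list of each library. H3K27ac, acetylation of histone H3 at lysine 27, marks active promoters and enhancers, and it was measured by chromatin immunoprecipitation sequencing (ChIP-seq). The 3 libraries were replicates 1 to 3 of BcorΔE9-10 KL cells, which are cKit-positive, Sca1-negative and lineage-negative myeloid progenitors of mouse bone marrow. The donors were male C57BL/6 mice of genotype scl-Cre-ERT +; Bcorfl/y. All had been given 1 mg tamoxifen on each of 5 days at an age of between 3 and 6 months, and the cells were sorted 20 weeks afterwards. The Cre recombinase is driven by an enhancer active in haematopoietic stem cells, so recombination of the floxed Bcor exons takes place in stem cells and is inherited by the progenitors. Per the study's methods the cells came from 3 mice. The other 19 of the 22 samples were not analysed here, and with no H3K27ac library of BcorWT cells analysed, all comparisons are between genes within the same libraries and none is between genotypes.

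Most products of these genes methylate histone H3 or act in complexes that do. KMT2A and KMT2B, a pair of related enzymes that carry menin (Men1) as a subunit, methylate H3K4 at promoters, and KMT2A is essential for haematopoietic stem cells and is rearranged in acute leukaemia. KMT2C and KMT2D are the main H3K4 monomethyltransferases of enhancers, SETD1A and SETD1B place most H3K4 trimethylation at promoters, and KMT2E carries a related SET domain and binds methylated H3K4. DOT1L methylates H3K79 in transcribed genes and ASH1L methylates H3K36. H3K27ac at these genes was read here as a mark on the genes themselves, not as a readout of their enzymes.

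Depth was 18.0 M to 19.3 M reads per library, and the lists held 23410 to 25963 peaks. A fold enrichment is the ratio of the fragments at a peak summit to the local background used for that library. The backgrounds of the libraries were not independent. They were 1.93, 2.02 and 2.02 at Kmt2b and 4.77, 5.00 and 5.00 at Setd1a in replicates 1, 2 and 3. An error in the background can thus repeat in every library, and agreement between libraries does not cover it. The folds were not scaled between libraries. Of the progenitor marker genes, 7 of 8 carried a peak within 2.5 kb of the transcription start site (TSS) in all 3 libraries, and Gata2 did not. No gene of the lymphoid list (0 of 5), of the mature myeloid list (0 of 5), of the erythroid list (0 of 4) or of the non-haematopoietic list (0 of 6) carried one in all 3. In the bulk libraries, fewer cells with an acetylated promoter and less acetylation per cell cannot be told apart.

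The promoter sequences of 4 genes are shown because these genes span the range of H3K27ac described below, from the strongest (Kmt2c) through Dot1l and Kmt2a to the weakest (Men1). RefSeq promoter windows of 300 bases (GRCm38.p6, 250 bases before the annotated start and 50 from the start on) were found for 6 of the 10 genes. The capitals mark exact matches on either strand to the GC box GGGCGG, the CCAAT box, the ETS core CGGAAG, the TATA box TATAAA, the NRF1 core TGCGCA and the YY1 motif AAGATGG. The windows read 5′ to 3′ along the gene and lie at chr5:25498734-25499033 (minus strand), chr10:80754953-80755252 (plus strand), chr9:44881240-44881539 (minus strand) and chr19:6334729-6335028 (plus strand).
Kmt2c: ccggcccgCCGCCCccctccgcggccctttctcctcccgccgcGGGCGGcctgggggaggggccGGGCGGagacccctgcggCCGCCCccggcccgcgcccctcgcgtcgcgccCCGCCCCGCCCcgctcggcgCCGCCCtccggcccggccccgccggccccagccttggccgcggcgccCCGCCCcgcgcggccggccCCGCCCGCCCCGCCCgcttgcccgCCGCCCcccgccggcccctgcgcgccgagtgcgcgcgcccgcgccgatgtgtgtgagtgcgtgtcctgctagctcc
Dot1l: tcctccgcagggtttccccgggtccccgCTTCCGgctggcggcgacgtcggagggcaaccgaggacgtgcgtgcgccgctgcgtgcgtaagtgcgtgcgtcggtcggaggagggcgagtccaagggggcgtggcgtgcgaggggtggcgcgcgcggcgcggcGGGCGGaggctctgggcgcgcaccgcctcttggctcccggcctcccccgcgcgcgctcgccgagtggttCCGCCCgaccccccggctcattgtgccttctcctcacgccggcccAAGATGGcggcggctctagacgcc
Kmt2a: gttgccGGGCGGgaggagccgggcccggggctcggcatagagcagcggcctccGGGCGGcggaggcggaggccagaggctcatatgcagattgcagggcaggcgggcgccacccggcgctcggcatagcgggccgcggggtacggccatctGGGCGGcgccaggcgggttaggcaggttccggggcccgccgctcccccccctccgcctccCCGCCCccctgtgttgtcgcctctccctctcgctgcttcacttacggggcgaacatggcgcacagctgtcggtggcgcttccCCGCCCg
Men1: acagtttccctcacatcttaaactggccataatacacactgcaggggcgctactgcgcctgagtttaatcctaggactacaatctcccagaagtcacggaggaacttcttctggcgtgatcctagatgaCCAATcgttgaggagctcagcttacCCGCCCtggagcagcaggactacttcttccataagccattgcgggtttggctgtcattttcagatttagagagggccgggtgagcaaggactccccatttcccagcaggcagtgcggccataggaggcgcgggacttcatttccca

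These windows differed in base composition. The Kmt2c window held 56 CpG dinucleotides and was 88.0% G and C, and 99.8% of the 32851 promoter windows of the RefSeq table held fewer CpGs. Dot1l held 49 CpGs, Kmt2a 36, Setd1a 35, Kmt2d 27 and Men1 11, against a median of 7 over all windows. This order was not that of H3K27ac at the starts: Kmt2d held fewer CpGs than Kmt2a but had the higher mean fold (14.3 against 9.11). The GC box matched at 12 positions in Kmt2c, some of them overlapping, at 5 in Kmt2a, at 4 in Kmt2d, at 2 in Dot1l and at 1 in Men1, and 35.7% of all windows held at least 1. The AAGATGG motif, held by 6.34% of all windows, lay in Dot1l and Setd1a. CGGAAG was found in Dot1l (16.9% of all windows) and CCAAT in Men1 (37.4%). Neither TATAAA (13.6% of all windows) nor TGCGCA (7.76%) was found in the 6 windows. The Setd1a window starts from a RefSeq start 719 bp from the GENCODE principal TSS used for its values below. In every library the strongest H3K27ac summits of the genes shown lie outside their windows, and the Men1 window ends before its peak begins.

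All 10 genes carried an H3K27ac peak within 2.5 kb of the principal TSS in all 3 libraries. The same held for 41.9% of protein-coding genes. The TSS fold, the highest fold enrichment of any peak that reaches within 2.5 kb of the principal TSS, ran from 4.30 ± 1.01 at Men1 to 25.2 ± 2.61 at Kmt2c (mean ± SD, n = 3 here and below). The TSS domain, the chain of peaks around that strongest peak with gaps of up to 1 kb, ran from 498 ± 255 bp at Men1 to 4679 ± 738 bp at Kmt2e. The median TSS fold of the 10 genes was 14.6, 15.5 and 15.5 in replicates 1, 2 and 3, against 9.07, 9.26 and 10.7 over all genes with a TSS peak. Their median TSS domain width was 1870, 1878 and 2072 bp, against 966, 1017 and 1045 bp. Of the 10 genes, 7 lay above the library's median TSS fold in all 3 libraries, where 43.3% of the 9138 genes with a TSS peak in every library did. Kmt2a, Setd1b and Men1 were the exceptions.

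**Figure D1:**
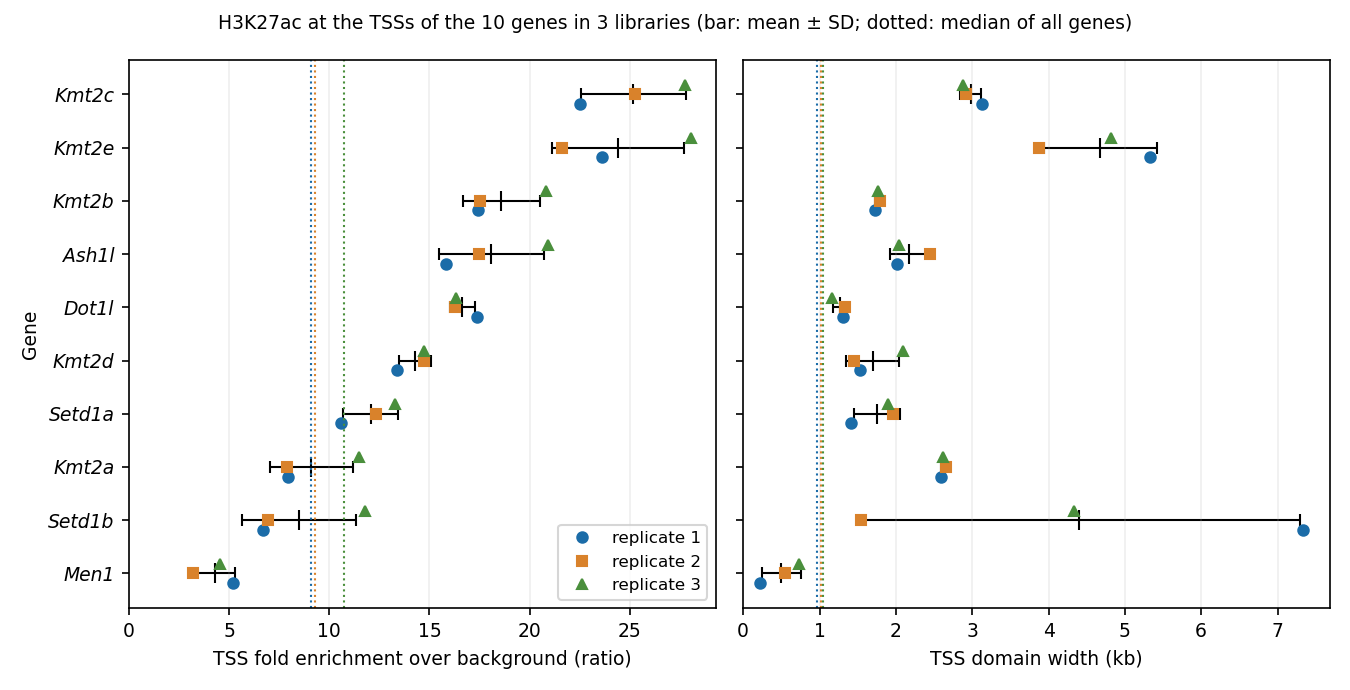
TSS fold enrichment (left, ratio) and TSS domain width (right, kb) of each gene, with 1 point per library, the mean and SD over 3 libraries, and dotted lines at the medians of all genes with a TSS peak in each library. Kmt2c and Kmt2e lead in fold, Men1 lies below every median, and the widths of Setd1b spread from 1.54 to 7.33 kb.

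The genes of the enhancer monomethyltransferases KMT2C and KMT2D differed in H3K27ac. The TSS fold of Kmt2c (chr5:25271798-25498783, minus strand, 227 kb) was 22.5, 25.3 and 27.8 in replicates 1, 2 and 3, from 86, 100 and 112 fragments at the summit. The exact Poisson 95% intervals were 18.1 to 27.8, 20.6 to 30.7 and 22.9 to 33.4, and cover the counting error of the ChIP only. All values lay above the limit of the top 10% of genes in their library (19.7, 18.5 and 21.6). Kmt2d (chr15:98831669-98871204, minus strand, 39.5 kb) had a TSS fold of 13.4, 14.7 and 14.7, from 43, 52 and 74 fragments. The ranges of the genes did not overlap, and Kmt2c was 1.76 times as high as Kmt2d in the mean, with a log2 difference of 0.81 ± 0.09. The domain of Kmt2c was 3133, 2922 and 2884 bp wide and that of Kmt2d 1531, 1454 and 2100 bp, a log2 difference of 0.83 ± 0.32. Both differences had the same sign in 3 of 3 libraries, and both had p = 0.25 by the exact two-sided sign-flip permutation test. No smaller p can be reached with 3 libraries, and Benjamini-Hochberg adjustment over the 6 pair tests gave 0.30. The width difference depended on how peaks were joined: it was -0.14 with gaps of up to 3 kb and 1.99e-05 with no gap allowed.

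The strongest summits of both genes lay upstream of the principal TSS. At Kmt2c they were 565, 619 and 587 bp upstream, and the summits downstream of the TSS reached a fold of 14.5, 14.3 and 22.8. An antisense-oriented long intergenic RNA, 4831440E17Rik, starts 322 bp upstream of Kmt2c inside the domain in 3 of 3 libraries. At Kmt2d the strongest summits lay 904, 896 and 646 bp upstream, and the single downstream summit had a fold of 4.16, 5.00 and 3.34. The long intergenic RNA 5730414N17Rik starts 1440 bp upstream of Kmt2d, inside the domain in replicate 3 alone, and no other protein-coding start lies in either domain. Which transcript an upstream summit belongs to cannot be told apart in these data.

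Kmt2e (chr5:23434441-23504235, plus strand, 69.8 kb) had the widest TSS domain in the mean, although Setd1b was wider in replicate 1 and the ranges of these genes overlapped. With gaps of up to 3 kb, Setd1b had the wider mean domain (6492 bp against 4679 bp). The TSS fold of Kmt2e was 23.6, 21.6 and 28.0, from 96, 91 and 136 fragments, and its domain was 5336, 3880 and 4822 bp wide. Between 98.9% and 99.8% of genes with a TSS peak had a domain at most as wide in the same library. The domain reached 3406, 2476 and 3318 bp upstream and 1929, 1403 and 1503 bp downstream of the TSS. Acetylation stood on both sides of the start: the highest upstream summit had a fold of 23.1, 18.5 and 28.0, and the highest downstream summit 23.6, 21.6 and 25.8. The long intergenic RNA 5031425E22Rik starts 172 bp upstream on the opposite strand. The TSS folds of Kmt2c and Kmt2e overlapped, with Kmt2c higher in 1 of 3 libraries, and Kmt2e stood above Kmt2b in every library. Kmt2c and Kmt2e were the 2 of the 10 genes in the top 10% by TSS fold in all 3 libraries, where 6.93% of genes with a TSS peak in every library were.

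Domains in the top 10% by width in all 3 libraries were found for 3 of the 10 genes, Kmt2a, Kmt2c and Kmt2e, against 6.34% of the 9138 genes. The limits of the top 10% were 2026, 2114 and 2184 bp. Kmt2c and Kmt2e were in the top 10% by both measures, as were 1.13% of genes. The count of 3 stayed the same with other joining rules, but the genes did not: with no gap allowed they were Kmt2d, Kmt2e and Ash1l, and with gaps of up to 3 kb they were Kmt2c, Kmt2e and Setd1b. The shares of all genes under these rules are not given here. Kmt2e was the only gene among the 10 that was wide under every gap and threshold tried. Over the 6 values of log2 TSS fold and log2 width, the 3 genes nearest to Kmt2e among 9137 others were Arid2 (Euclidean distance 0.18), Gnas (0.39) and Stag2 (0.48). Arid2, a subunit of a chromatin remodelling complex, had a TSS fold of 22.9, 21.8 and 27.6 and a width of 4914, 4146 and 5094 bp.

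**Figure D2:**
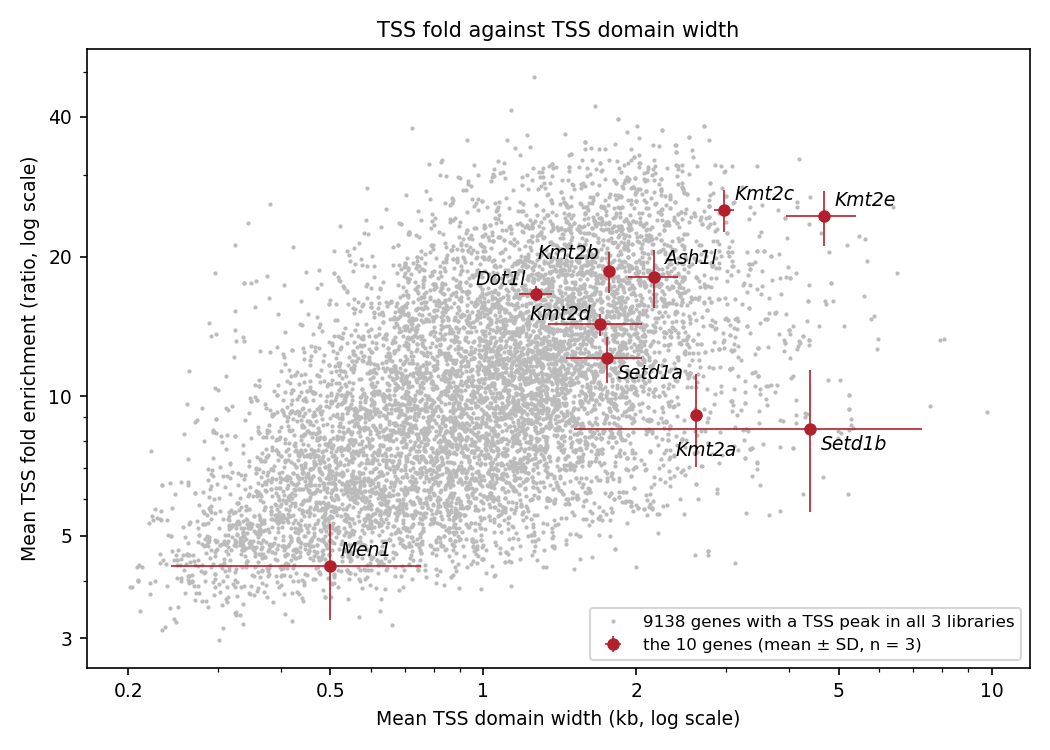
Mean TSS fold enrichment (ratio, log scale) against mean TSS domain width (kb, log scale) for 9138 genes with a TSS peak in all 3 libraries (grey) and the 10 genes (red, mean ± SD, n = 3). Kmt2c and Kmt2e lie at the upper right, Kmt2a and Setd1b lie to the right at a fold near the middle of all genes, and Men1 lies at the lower left.

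Kmt2a and Kmt2b, whose products share menin, showed opposite orders by the 2 measures. The TSS fold of Kmt2a (chr9:44803355-44881296, minus strand, 77.9 kb) was 7.95, 7.88 and 11.5, from 25, 25 and 39 fragments. In Kmt2b (chr7:30568858-30588726, minus strand, 19.9 kb) it was 17.4, 17.5 and 20.8, from 50, 52 and 63 fragments. The groups of values did not overlap, and Kmt2b was 2.07 times as high, with a log2 difference of Kmt2a minus Kmt2b of -1.05 ± 0.17. Kmt2a was near the middle of all genes by fold (39.2 to 54.6% of genes with a TSS peak were at or below it), and Kmt2b was higher (85.5 to 88.7%). By width the order turned: Kmt2a domains were 2591, 2656 and 2622 bp wide and Kmt2b domains 1722, 1799 and 1769 bp, a log2 difference of 0.57 ± 0.01. Each difference held in 3 of 3 libraries, with an exact sign-flip permutation p = 0.25 and an adjusted p = 0.30.

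The width of Kmt2a came from 3 separate peaks in every library. The central peak was 965, 836 and 1051 bp wide, with its strongest summit 350, 607 and 169 bp downstream of the TSS. The flanking peaks were weaker, at a fold of 4.36, 3.20 and 6.01 upstream and 4.66, 4.44 and 3.78 downstream. Counted without gaps, Kmt2a was the narrower gene, and the log2 difference to Kmt2b turned to -0.68. With peaks of −log10 q of at least 5 alone it turned to -0.31. At Kmt2b a single summit carried the fold, 197, 181 and 174 bp downstream of the TSS, and the upstream summits reached 6.13, 6.50 and 6.94. The antisense transcript AC061963.1 starts 432 bp upstream of Kmt2a, and Mir3569 starts 654 bp upstream of Kmt2b, both inside the domain in 3 of 3 libraries.

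Men1, which encodes menin, had the weakest H3K27ac of the 10 genes in every library. The gene (chr19:6334979-6340891, plus strand, 5.91 kb) had a TSS fold of 5.17, 3.20 and 4.52. These folds rest on 17, 15 and 22 fragments, and the exact Poisson 95% intervals of 3.13 to 8.11, 1.88 to 5.15 and 2.91 to 6.75 overlap each other. The single peak was 224, 543 and 728 bp wide and began 130, 121 and 83 bp downstream of the principal TSS, so it did not cover the start. In replicate 2, 1.51% of genes with a TSS peak had a fold at or below that of Men1, and in replicate 1 17.9% did. At −log10 q of at least 5, the Men1 peak was kept in fewer than 3 libraries, while the other 9 genes kept theirs in all 3. The share of all genes that keep a TSS peak at this threshold is not given here. Men1 lay below its neighbour in the order, Setd1b, in 3 of 3 libraries.

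The SET1 enzyme genes were lower than the KMT2C and KMT2E genes. Setd1a (chr7:127776670-127800122, plus strand, 23.5 kb) had a TSS fold of 10.6, 12.3 and 13.3, with the strongest summit 558, 558 and 565 bp downstream of the principal TSS and a domain of 1407, 1957 and 1891 bp. Setd1b (chr5:123142193-123168629, plus strand, 26.4 kb) had a TSS fold of 6.71, 6.95 and 11.8. The gene was lower than Setd1a in 3 of 3 libraries, with a log2 difference of 0.55 ± 0.34 (exact sign-flip permutation p = 0.25, adjusted p = 0.30), but replicate 3 of Setd1b lay inside the range of Setd1a. Without replicate 2 the log2 difference was 0.41, and without replicate 3 it was 0.74.

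The domain of Setd1b was the most variable of the 10, with widths of 7329, 1541 and 4328 bp. In replicates 1 and 3 the strongest peak was not at the Setd1b start but 3105 and 3216 bp upstream, near the start of the long intergenic RNA 4932422M17Rik (3262 bp upstream). A peak stood there in replicate 2 as well, with its summit 3358 bp upstream and a fold of 6.00, but a gap of over 1 kb parted it from the domain. A further long intergenic RNA, AI480526, starts 527 bp upstream on the opposite strand. With a TSS window of 1 kb in place of 2.5 kb, the folds of Setd1b were 6.27, 6.95 and 10.3. All then lay below the range of Setd1a (10.6 to 13.3), with a log2 difference of Setd1a minus Setd1b of 0.65 ± 0.24. The overlap in replicate 3 thus came from the upstream peak. The width of Setd1b was larger than that of Setd1a in 2 of 3 libraries, and the log2 difference of Setd1a minus Setd1b was -1.08 ± 1.37 (exact sign-flip permutation p = 0.50, adjusted p = 0.50), -0.42 without replicate 1 and -1.79 without replicate 2.

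DOT1L and ASH1L do not act on H3K4, and their genes fell between Kmt2b and Kmt2d in mean fold. At Dot1l (chr10:80755206-80795461, plus strand, 40.3 kb) the TSS fold was 17.4, 16.3 and 16.3, from 66, 64 and 82 fragments, with the smallest relative spread of the 10 genes (3.74% of the mean). Its domain was 1312, 1334 and 1159 bp wide, began within 26 bp upstream of the TSS and lay almost wholly downstream. For Ash1l (chr3:88950622-89079375, plus strand, 129 kb) the TSS fold was 15.8, 17.5 and 20.9, from 55, 63 and 77 fragments, and its domain was 2018, 2448 and 2043 bp wide. Its strongest summit lay 256, 250 and 251 bp downstream, and an upstream summit had a fold of 11.7, 11.3 and 11.5. Dap3, which encodes a mitochondrial ribosomal protein, starts 208 bp upstream on the opposite strand, so a single domain covers the starts of both genes.

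In the order of mean TSS fold, Kmt2c, Kmt2e, Kmt2b, Ash1l, Dot1l, Kmt2d, Setd1a, Kmt2a, Setd1b and Men1, the ranges of 5 of the 9 neighbouring pairs overlapped. These were Kmt2c with Kmt2e, Kmt2b with Ash1l, Ash1l with Dot1l, Setd1a with Kmt2a, and Kmt2a with Setd1b. The remaining steps ran from Kmt2e to Kmt2b, from Dot1l to Kmt2d, from Kmt2d to Setd1a and from Setd1b to Men1. These steps held in every library, and the ranges over the libraries did not overlap. The order was, however, made from these same folds. Within single libraries the exact Poisson intervals of each such pair overlapped, except for Setd1b and Men1 in replicate 3. In replicate 2, for example, they were 12.6 to 20.7 for Dot1l and 11.1 to 19.2 for Kmt2d. Overlap of such intervals is not a test of a difference, and no test was made within a single library. By width, 4 of 9 neighbouring pairs overlapped. Replicate 3 gave the highest TSS fold for 8 of the 10 genes and replicate 1 for Dot1l and Men1, and replicate 3 also had the highest median over all genes.

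In no library did a summit fall on a TSS. The domain summit nearest to the principal TSS was 111 to 395 bp away across the 10 genes and 3 libraries. Within the TSS domain, Dot1l and Men1 had summits only downstream of the start in all 3 libraries, and at Kmt2d the upstream summits were higher than the downstream summit in each.

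**Figure D3:**
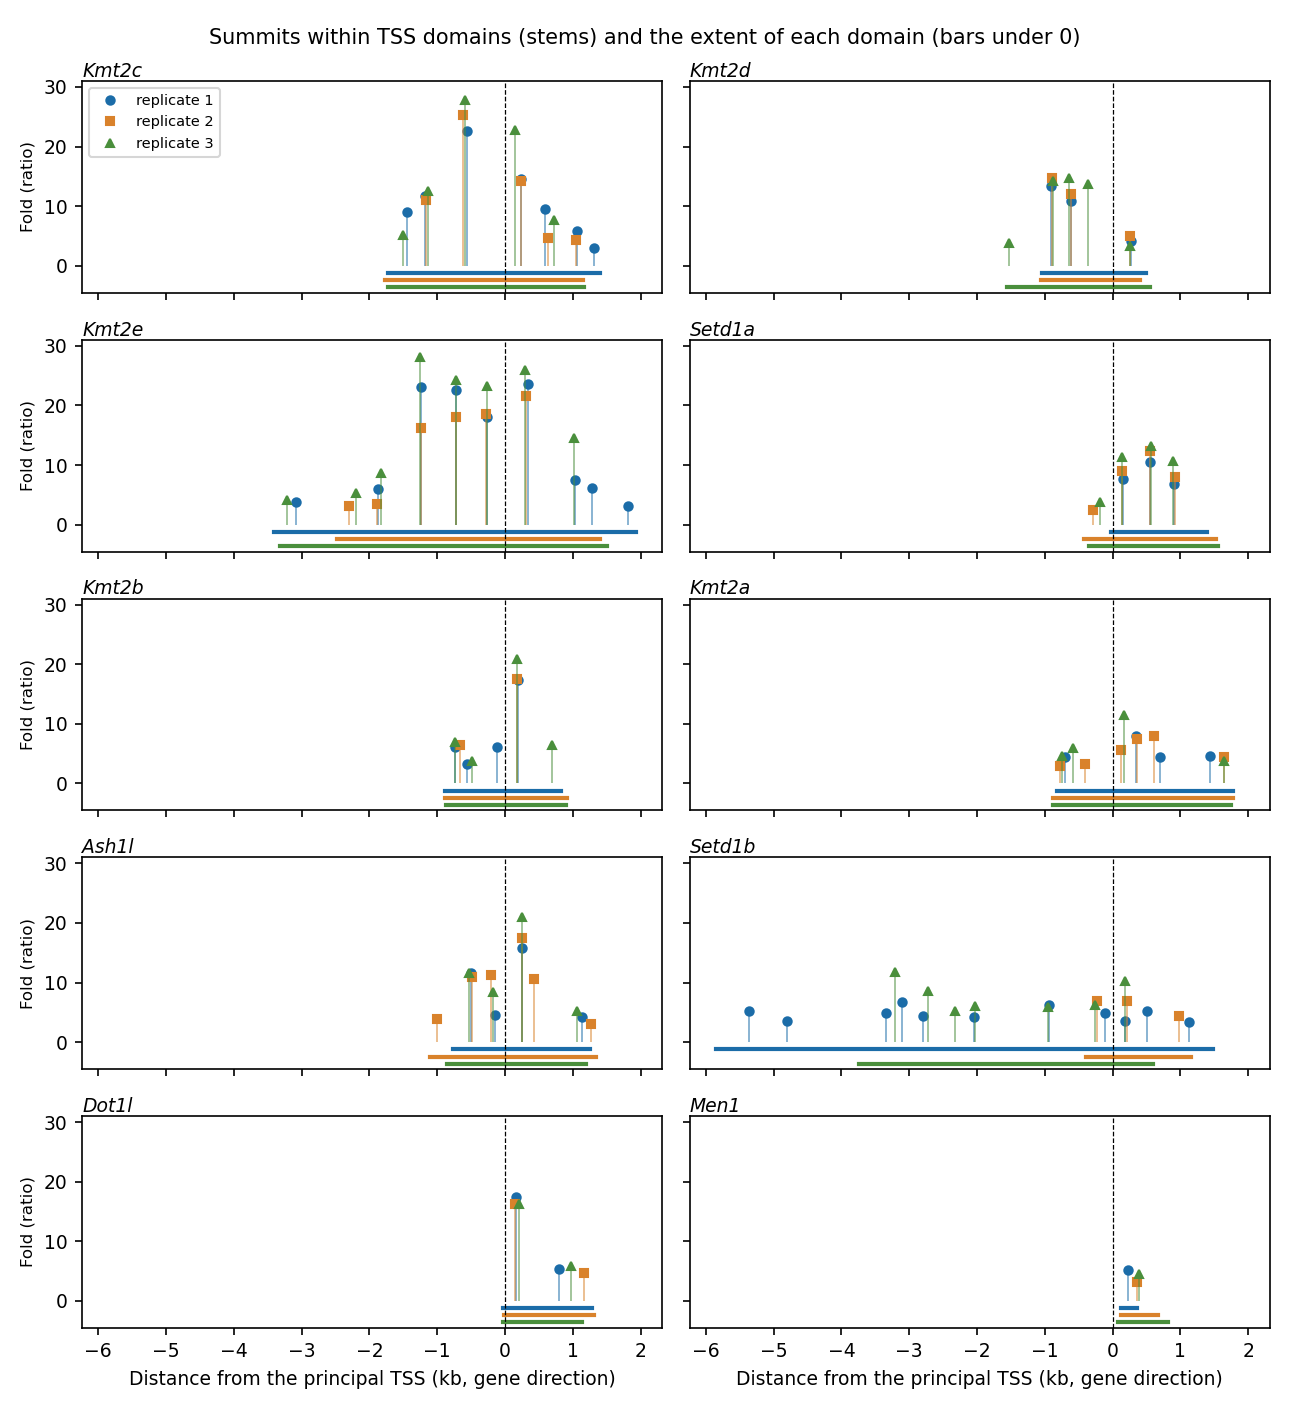
Fold enrichment (ratio) of each H3K27ac summit in the TSS domain against its distance from the principal TSS (kb, in the direction of the gene), with 1 colour per library and the extent of each domain drawn as bars under 0. Kmt2e carries high summits on both sides of the start, Kmt2c and Kmt2d have their highest summits upstream, and the Setd1b domain extends more than 3 kb upstream in replicates 1 and 3 and 390 bp in replicate 2.

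Outside the TSS domains, the gene bodies held little H3K27ac. The peaks in the gene windows numbered 41, 42 and 36 in replicates 1, 2 and 3, of which 26, 17 and 18 lay in TSS domains, 2, 10 and 4 in gene bodies outside them, and 13, 15 and 14 in the flanks. Joined over the libraries, the peaks in gene bodies formed regions of which 10 were found in 1 library, 1 in 2 libraries and 1 in all 3. The gene with a region in all 3 libraries was Kmt2d, 1 of the 10 genes, against 13.4% of genes with a TSS peak in every library. Among genes of at least 20 kb the share was 20.3%, and 8 of the 10 genes are of that length. The Kmt2d region (chr15:98831593-98832483, at the 3′ end of the gene over an exon) had a fold of 10.2, 5.67 and 8.03 and lies within 2.5 kb of the start of Prkag1, which encodes a regulatory subunit of the energy sensor AMPK. Regions away from the starts of other genes were found in all 3 libraries in 10.3% of genes, in 16.6% of those of at least 20 kb, and in 0 of the 10 genes.

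The longest gene bodies held no peak. Kmt2c, the longest at 227 kb, had no peak outside its TSS domain in the body or within 10 kb in any library. Ash1l, at 129 kb, had none in its body. In Kmt2a, each library had 1 intronic peak at another place, 13.5, 7.20 and 5.72 kb downstream of the TSS, with a fold of 3.32, 3.55 and 3.93. The TSS fold of Kmt2a was above the intronic peak of the same library in 3 of 3 libraries (log2 difference 1.32 ± 0.21), and that of Kmt2d above its strongest peak in the body in 3 of 3 (0.88 ± 0.49), each with an exact sign-flip permutation p = 0.25. Kmt2e had 4 peaks in the body in replicate 2, with a fold of 3.64 to 5.98, most of them within 2.5 kb of the start of another Kmt2e transcript, and none in replicates 1 and 3. Dot1l had intronic peaks in replicates 2 and 3 at different places, the strongest with a fold of 3.31 and 3.58.

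Outside the TSS domains, peaks in more than 1 library and away from the starts of other genes were few. The sequences at the summits of a pair of such regions near their gene are shown, because no start of another gene lies within 2.5 kb of them. The first lies in an intron of Kmt2d, 3.06 to 3.54 kb downstream of the TSS (region chr15:98867661-98868140), and had a fold of 4.25 in replicate 2 and 4.40 in replicate 3, with 16 fragments in each, and no peak was called in replicate 1. The second lies upstream of Dot1l, from 3.43 to 2.42 kb before its TSS (region chr10:80751780-80752789), and had a fold of 6.23, 2.67 and 5.31 in replicates 1, 2 and 3, from 29, 15 and 26 fragments. The windows of 200 bases around the strongest summit are chr15:98867897-98868096 (minus strand) and chr10:80751853-80752052 (plus strand) in GRCm38. The capitals mark matches on either strand to the RUNX core TGTGGT, the GATA forms AGATAA and also TGATAA, the PU.1 core GAGGAA, the E-box CAGCTG and the AP-1 site TGACTCA.
Kmt2d intron: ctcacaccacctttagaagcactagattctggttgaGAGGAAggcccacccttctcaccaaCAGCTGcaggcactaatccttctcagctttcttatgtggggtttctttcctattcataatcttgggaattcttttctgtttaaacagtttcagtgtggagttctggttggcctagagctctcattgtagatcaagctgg
Dot1l upstream: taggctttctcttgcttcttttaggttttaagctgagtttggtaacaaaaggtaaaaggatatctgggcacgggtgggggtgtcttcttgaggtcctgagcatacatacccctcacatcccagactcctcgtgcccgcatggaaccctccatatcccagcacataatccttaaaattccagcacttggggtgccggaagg

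The Kmt2d window held 1 match to GAGGAA and 1 to CAGCTG. Over the summits of all 23674 peaks more than 2.5 kb from any annotated start, 21.3% of windows of this length held GAGGAA and 14.1% held CAGCTG. The Dot1l window held none of the 6 motifs, of which TGTGGT was found in 16.1% of those windows, AGATAA in 7.90%, TGATAA in 5.85% and TGACTCA in 4.20%. The Kmt2d window held 0 CpGs and the Dot1l window 4, each in 200 bases, and the 6 promoter windows of 300 bases held 11 to 56. The window lengths differ, and no CpG count over other summit windows is given for comparison.

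The flanks held 9 regions found in all 3 libraries, and 8 of these lay within 2.5 kb of the start of another gene. The strongest was at the 3′ side of Dot1l, 42.1 to 44.4 kb from its TSS, at the starts of Plekhj1 and the splicing factor gene Sf3a2, with a fold of 26.3, 23.8 and 27.6. The fold there was higher than at the Dot1l start in each library. At Psenen and U2af1l4, beyond the 3′ end of Kmt2b, the stronger of 2 regions had a fold of 11.8, 11.0 and 21.1. At the Prkag1 start next to Kmt2d the fold was 15.4, 11.7 and 14.2, and at Orai3, upstream of Setd1a, it was 8.39, 12.0 and 9.63. Weaker regions in all 3 libraries lay near Map4k2, beside Men1 (3.65, 4.12 and 4.15), and near Rhebl1, upstream of Kmt2d (4.95, 3.60 and 3.83).

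**Figure D4:**
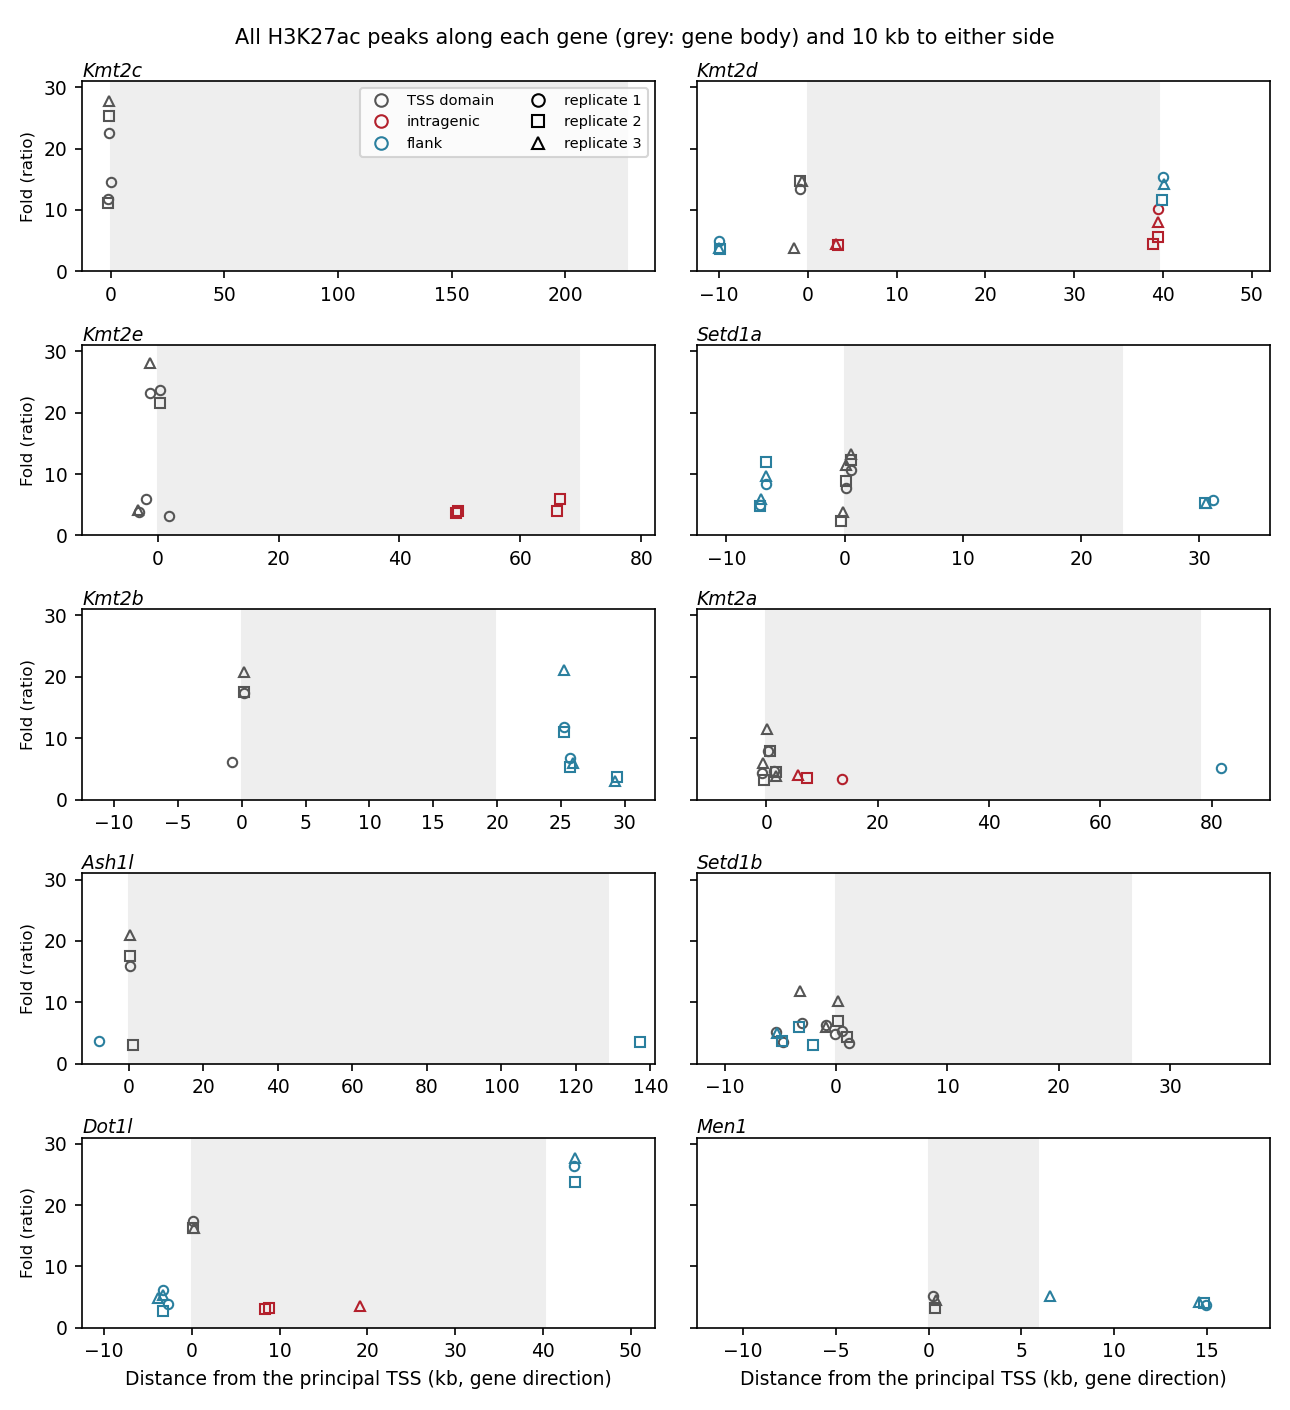
Fold enrichment (ratio) of every H3K27ac peak along each gene body (grey) and 10 kb to either side, against the distance from the principal TSS (kb, in the direction of the gene), with symbols for libraries and colours for peaks in the TSS domain, in the gene body outside it, and in the flanks. The bodies of Kmt2c and Ash1l hold no peak beyond the TSS domain, and the high flanking peaks at Dot1l, Kmt2b and Kmt2d lie at the starts of other genes.

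The partners of these enzymes were described by the same measures. Of 34 partner and related genes in 7 lists, 30 had a TSS peak in all 3 libraries (41.9% of protein-coding genes), and 21 of these were above the library's median TSS fold in every library (43.3% of all such genes). The top 10% by TSS fold held 5 of them in every library (6.93% of all such genes), and the top 10% by width held 6 (6.34%). Highest and lowest below refer to the mean over the 3 libraries, and the order could differ in single libraries. The median TSS fold of these 30 genes was 15.6, that of the 10 genes 15.5 and that of all genes with a TSS peak in every library 10.2.

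Among the core subunits shared by the H3K4 complexes, 5 of 6 had a TSS peak in all 3 libraries. Their TSS folds were moderate: the highest was Hcfc1, which encodes a transcriptional coregulator, at 15.8, 12.6 and 18.5, and the lowest Hcfc2 at 9.17, 7.84 and 8.19. Dpy30 had no peak within 2.5 kb of its principal TSS. At another of its 6 annotated coding starts a peak was found in each library, with a fold of 6.48, 6.25 and 7.62. Of the 3 SET1-specific subunits, Cxxc1, which recognises unmethylated CpGs, had the highest mean at 15.4, 19.8 and 15.3 and Bod1l the lowest mean at 10.9, 8.93 and 9.75.

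All 4 genes of the KMT2A and KMT2B partner list had a TSS peak in every library, and 3 of them were above the median. Taf9, a subunit of the general transcription factor TFIID, was highest in the mean at 30.3, 20.7 and 28.2, and Hdgfl2 lowest at 7.67, 11.1 and 7.80. Ak6 had the same mean TSS fold (26.4) and mean width (1996 bp) as Taf9, so the Taf9 values cannot be assigned to Taf9 alone. Psip1, which encodes the chromatin tether LEDGF that binds KMT2A together with menin, had a TSS fold of 16.4, 21.5 and 18.2, above that of Men1 in each library. Of the 4 KMT2C and KMT2D partners, 3 had a TSS peak in every library. Ncoa6, a nuclear receptor coactivator, was highest at 21.5, 19.8 and 21.5 and Paxip1 lowest at 12.3, 11.2 and 13.6, while Pagr1a had a peak in replicates 1 and 3 alone, with a fold of 3.84 and 3.64. Kdm6a, which encodes the H3K27 demethylase of these complexes, had a domain in the top 10% by width in every library (2152, 2366 and 2220 bp).

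Of the 7 genes of the DOT1L complex and KMT2A fusion partners, 5 had a TSS peak in every library, and Mllt3 and Mllt6 had none at any annotated coding start. Aff4, a scaffold of the super elongation complex, was highest at 32.2, 23.9 and 34.7, and Ell, an elongation factor, lowest in the mean at 10.8, 7.83 and 8.85. All 5 H3K36 methyltransferases and ASH1L partners were above the median in every library, from Setd2 (14.9, 16.2 and 22.2), which trimethylates H3K36, to Morf4l1, a chromodomain protein, at 40.5, 30.0 and 39.0. Its fold was above that of each of the 10 genes in every library. Among the 5 H3K4 demethylases, which reverse the reaction of the KMT2 enzymes, Kdm5a was highest at 23.7, 25.3 and 26.6 and Kdm1b lowest in the mean at 5.12, 8.13 and 6.45.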

How the data were processed

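Peak lists from H3K27ac ChIP-seq of 3 libraries of BcorΔE9-10 KL cells were used. Per the methods, reads were aligned by the authors to GRCm38 (Bowtie2), who called peaks with MACS2 2.1.1, and the files hold 1 list per library. The submitters' processing notes also name cutadapt 1.7. For each summit the deposited lists give a fold enrichment (ratio over local background), the −log10 of the p-value and of the q-value, and a score, which was not used. The control behind the lists is not given in the sources used here.

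Where several rows shared an interval, 1 peak was kept at the row of highest fold. Gene models were GENCODE M21, with the principal TSS chosen by APPRIS rank and then transcript length. Coordinates are GRCm38, counted from 1. A TSS peak lay within 2.5 kb, TSS domains joined peaks over gaps of up to 1 kb, and wide meant at or above the 90th percentile of genes with a TSS peak in that library. Fragments at each summit were solved from the fold and p-value (100% of rows within 0.002 on the −log10 scale), and depth was taken from the lowest background with fragments of 200 bp. Duplicates carry no molecular identifiers, so the exact Poisson 95% intervals cover counting error of the ChIP only, with the background taken as fixed. Differences within libraries were tested with an exact two-sided sign-flip permutation test over 3 libraries. The steps were tested on simulated data.

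The genes and lists were chosen with earlier results of these data known. Named were the 10 genes, the highest and lowest gene of each partner list and those lacking a TSS peak in all 3 libraries, genes with a peaked TSS in a member's body or flank, the 3 nearest genes to the widest member, and regions in all 3 libraries. Psip1, Kdm6a, Ak6, Arid2's values and the background of genes of at least 20 kb were added after values were seen. The same holds for the intronic Kmt2d, upstream Dot1l and single-library peaks. Python 3.11.15, numpy 2.4.6, pandas 2.3.3 and scipy 1.17.1 were used. Alternatives changed the joining gap, the peak threshold, the TSS and its window, the measure, the scaling and the libraries. A result on 1 flanking region is not reported here.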

Additional observations from a re-analysis of the deposited data

How the results depend on the processing

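No paired analysis was possible because 1 group alone was analysed, with no other group whose replicate numbers could be matched to it. Differences between genes were taken within each library. The median TSS domain width of the 10 genes was 1967 bp, and it was 1540 bp with no gap allowed between joined peaks, 2801 bp with gaps of up to 3 kb and 1649 bp at −log10 q of at least 5. With no gap the mean width fell to 951 bp at Kmt2a, 1553 bp at Kmt2b, 1836 bp at Kmt2c, 3092 bp at Kmt2e and 1078 bp at Setd1a, since these domains hold separate peaks. With gaps of up to 3 kb it was 3711 bp at Kmt2d and 3712 bp at Dot1l, and at −log10 q of at least 5 it was 1518 bp at Kmt2a. Genes with a region in the body in all 3 libraries numbered 3 with no gap (Kmt2a, Kmt2d and Setd1a), as parts of a TSS domain were then counted as body. The log2 width difference of Kmt2a minus Kmt2b reversed to -0.68 with no gap and to -0.31 at −log10 q of at least 5, and that of Kmt2c minus Kmt2d reversed to -0.14 with gaps of up to 3 kb. The exact sign-flip permutation p of the 6 tests could not fall below 0.25 with 3 libraries, or below 0.50 with a replicate left out. These p-values therefore cannot show whether a difference was robust.

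The TSS fold of each gene stayed within its SD for every TSS window and threshold tried. Ranked by −log10 p in place of TSS fold, the mean percentile was 81.3 at Kmt2b, 97.6 at Kmt2e and 79.6 at Setd1a. Ranked by TSS fold, it was 87.3, 95.5 and 63.8 for the same genes. At −log10 q of at least 5, 9 genes kept a TSS peak in every library and 2 were wide. No share of all genes is given for counts under settings other than the main one, so these counts have no background. When each replicate was left out in turn, the median TSS fold ran from 15.4 to 15.5, the median width from 1923 to 2085 bp, the median percentile from 76.2 to 80.1 and the wide genes from 3 to 4, Setd1b being the addition without replicate 2. The log2 fold differences then ran from -1.14 to -0.99 for Kmt2a minus Kmt2b, from 0.77 to 0.85 for Kmt2c minus Kmt2d and from 0.41 to 0.74 for Setd1a minus Setd1b. The log2 width differences ran from 0.56 to 0.58, from 0.73 to 1.02 and from -1.79 to -0.42 for the same pairs. The lists hold no summit below 8 fragments, so weaker acetylation could not be seen.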
